A study of Mus musculus with 31 samples.

Results

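The interferon response genes are 46 mouse genes chosen by name as transcripts that cells make more of when interferon reaches them. They were found by symbol through their Ensembl IDs, and all 46 were present among the 48881 genes of the 2 deposited count tables. The list was chosen with earlier results of these data known. Its shares and medians beside those of all genes are therefore descriptions and not an independent test. The genes were followed in 31 RNA-seq libraries of C57BL/6 mice that fall into 15 groups. DN1 and DN3 thymocytes, which are early stages of T cell development that carry neither CD4 nor CD8, were grown over an OP9-DL1 stroma, with SCF, IL-7 and IL-2 added. Every culture, controls included, carried R26-CreERT2 (a Cre recombinase switched on by tamoxifen) and R26-stop-tdTomato (a reporter of Cre activity), and the floxed cultures carried E2Af/fHEBf/f as well. E2A (Tcf3) and HEB (Tcf12) are E proteins, transcription factors that drive the T cell programme. Floxed libraries a and b and control libraries c and d were made on day 4 before 4-hydroxytamoxifen (4-OHT), and on days 5 and 7 from cells sorted for tdTomato. The day 4 libraries were not sorted. The labels of the DN1 day 7 libraries put 4-OHT on day 7, the design text puts it on day 4, and day 4 was used. Both genotypes received 4-OHT, so culture time and 4-OHT cannot be told apart. Group 2 innate lymphoid cells (ILC2) came straight from mice: thymic ILC2 of plck-Cre;E2Af/fHEBf/f mice (called dKO, libraries 1 and 3), lung ILC2 of dKO mice (libraries 1 and 3) and lung ILC2 of plck-Id1 mice (libraries 1, 2 and 3), which carry a transgene of the E protein inhibitor Id1. Cre and Id1 are both driven by the proximal Lck promoter, which is active in T cell precursors. The genotype labels of 2 of the Id1 samples read plck-Id2 and plck-Id3, and these were grouped by title. No source used here gives ages.

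A culture library held 5908459 to 10692186 counts. Thymic ILC2 libraries had totals of 4818443 and 5669876, and totals in the lung were 3695522 and 5627406 for dKO ILC2 and 9671437 to 13065445 for Id1 ILC2. On day 7 the floxed cultures had 15 to 38.3 CPM of Tcf3, against 79.7 to 100 CPM in controls, and 107 to 170.0 CPM of Tcf12, against 267 to 508 CPM. Xist, the RNA of the inactive X chromosome, was at 582 to 1940 CPM in floxed and 4.49 to 68.4 CPM in control cultures, so sex and genotype cannot be told apart there. Summed stromal markers ran from 2700 to 13700 CPM in the unsorted day 4 libraries and from 32.9 to 204 CPM on days 5 and 7. Levels of day 4 were therefore not tested against those of later days, and only the genotype difference of day 4 was used. Mitochondrial rRNA took 52.0% and 54.8% of the counts of thymic ILC2 and 12.1% to 46.5% in lung ILC2, against 0.702% to 1.8% in cultures. In lung dKO library 3, the predicted gene Gm10800 took 25.2% of the counts. Summed over 12 marker genes of ILC2 such as Gata3 and Il1rl1, levels were 2920 and 3780 CPM in thymic ILC2, 3200 to 7590 CPM in lung ILC2 and 2710 to 3250 CPM in floxed cultures of day 7.

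Interferons bind receptors that switch on JAK kinases. Type I interferon acts through a complex that holds STAT2 and IRF9 and binds the interferon-stimulated response element (ISRE), while interferon gamma acts mostly through other DNA elements. The induced genes encode sensors of foreign RNA and DNA, enzymes that block virus replication, ubiquitin-like modifiers, GTPases that attack intracellular microbes, and the machinery that loads peptides on MHC class I. In mouse ILC2, interferons are known to restrain proliferation and the production of type 2 cytokines.

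The ISRE was looked for in the annotated promoters, because it is the element through which most of these genes are known to answer type I interferon. RefSeq promoters (build GRCm38.p6) were matched for 36 of the 46 genes. The search took the ISRE core (GAAA, any 2 bases, GAAA) on both strands within 250 bases before the start, with overlapping matches counted, and 978 of all 32851 promoters (2.98%) held one. Of the 36 matched genes of the list, 14 held a core. Of the 17 genes that differed between genotypes on day 7 in DN1 or DN3, 15 were matched and 5 held a core. Whether these 15 differ from the other matched genes was not tested. Since under 80% of the genes were matched, no share over the whole list is given. The 4 genes of those 5 with the largest genotype difference are shown as the 150 bases before the start, read along the gene, with capitals marking the core or overlapping cores. Positions count back from the start: Oas3 (chr5:120777660-120777809, minus strand) has 1 core at -75 to -66, Bst2 (chr8:71537473-71537622, minus strand) has 2 at -130 to -115, Gbp3 (chr3:142559894-142560043, plus strand) has 2 at -45 to -30 read on the opposite strand, and Isg15 (chr4:156200819-156200968, minus strand) has 3 at -78 to -57.
Oas3: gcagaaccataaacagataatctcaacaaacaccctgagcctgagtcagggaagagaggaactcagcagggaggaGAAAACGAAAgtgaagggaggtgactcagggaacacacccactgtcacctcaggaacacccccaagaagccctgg
Bst2: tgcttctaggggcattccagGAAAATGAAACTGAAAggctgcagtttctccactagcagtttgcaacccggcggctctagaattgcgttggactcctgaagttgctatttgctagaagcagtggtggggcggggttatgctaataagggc
Gbp3: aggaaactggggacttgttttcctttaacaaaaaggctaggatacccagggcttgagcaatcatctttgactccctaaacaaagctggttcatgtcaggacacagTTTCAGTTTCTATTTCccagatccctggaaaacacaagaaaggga
Isg15: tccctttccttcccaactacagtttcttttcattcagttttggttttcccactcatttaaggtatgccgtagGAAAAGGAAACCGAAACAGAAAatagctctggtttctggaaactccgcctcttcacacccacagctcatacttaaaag
A match describes letters in a window and is not evidence that a factor binds there.

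Levels are given as normalised CPM, which are counts scaled to the effective library size. In the cultures 36 to 43 of the 46 genes averaged at least 1 CPM in a group and 15 to 32 averaged at least 10 CPM. The number at 10 CPM or more was 25 and 25 in DN1 floxed and DN1 control cultures on day 7, against 18 and 20 on day 5, and 32 and 31 in DN3 floxed and DN3 control cultures on day 7, against 19 and 18 on day 5. Per kilobase of exon, Ifitm3, a membrane protein that blocks virus entry, was the highest of the list in 10 of the 12 culture groups, at 204 CPM per kb in DN1 floxed and 421 CPM per kb in DN1 control cultures on day 7. In both DN3 groups of day 5 the highest was Psmb8, a subunit of the immunoproteasome, at 84.7 CPM per kb in floxed and 79.5 CPM per kb in control cultures. Near the bottom, Mx1, Oas1a and Ifit3b stayed too low to be tested in cultures, which left 43 genes for the culture comparisons.

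Genes of the list rose between day 5 and day 7 in both precursors and both genotypes (day 7 over day 5; edgeR quasi-likelihood test, Benjamini-Hochberg adjusted p under 0.05, n = 2 libraries per group). Among DN1 floxed cultures, 19 of the 43 genes rose and 2 fell, where 21.5% of all 15172 genes tested passed (12.0% higher, 9.47% lower). In DN1 control cultures 16 rose and 0 fell, where 13.1% of all genes passed (6.45% higher, 6.65% lower). DN3 floxed cultures had 31 genes that rose and 0 that fell, where 24.5% of all genes passed (13.6% higher, 10.9% lower), and DN3 control cultures had 36 that rose and 0 that fell, where 20.3% passed (10.5% higher, 9.73% lower). The median log2 change over the 43 genes was 0.58, 0.80, 1.61 and 1.89 in those 4 comparisons, beside 0.00, 0.04, -0.01 and 0.06 over all genes. The labels do not say whether replicates are separate animals or cultures, so each p measures only spread between libraries. That spread was estimated over all 24 culture libraries together and not from the compared pairs alone. Here and below, libraries said not to overlap, or to be separated, gave the same values as the test. The share of all genes without overlap was not counted, so such statements describe the values and add no support to a call.

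**Figure D1:**
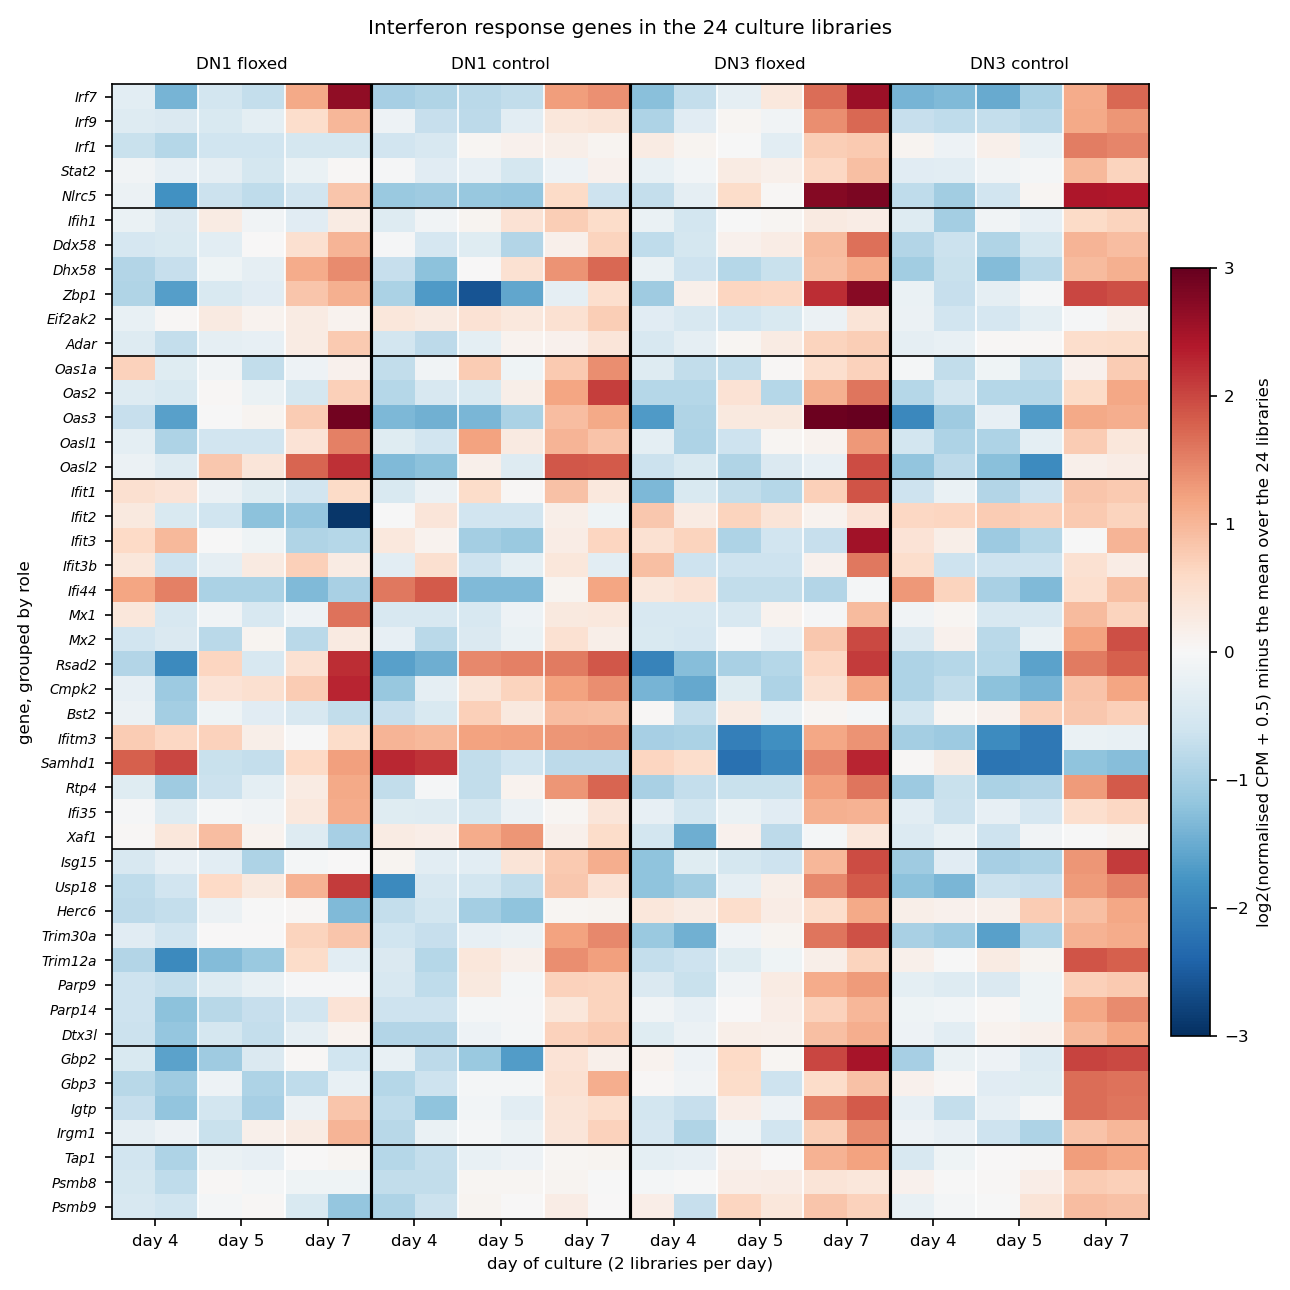
Each row is 1 of the 46 interferon response genes, grouped by role, and each column 1 culture library, with days running from 4 to 7 within each precursor and genotype. Colour is log2(normalised CPM + 0.5) minus the gene's mean over the 24 libraries: the day 7 columns of DN3 are red in most rows, Samhd1 is lowest on day 5 of DN3, and library b (the right-hand one) of DN1 and DN3 floxed day 7 is redder than library a in most rows.

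The 2 floxed day 7 pairs were uneven. Library b was the higher of the pair for 34 of the 46 genes in DN1, by a median of 0.46 on the log2 scale, and for 41 of 46 in DN3, by a median of 0.39. Without that library, 6 genes passed in the DN1 floxed comparison in place of 21, and 20 in the DN3 floxed comparison in place of 31. The summed level of 8 skeletal muscle markers was 61.2 CPM in DN1 floxed library a and 8050 CPM in library b of day 7, against 4.89 to 29.4 CPM in control libraries of day 7, and its part in the result was not tested. For the DN1 floxed pair of day 5, leaving out library a or b left 9 and 11 genes, and for DN1 control cultures leaving out any of the 4 libraries left 7 or 8 genes in place of 16. With the compared libraries fitted alone, 1 gene passed in DN1 floxed and 26 in DN1 control cultures. Shares of all genes under these refits are not given here, so the counts show how calls moved and not how the list stands beside all genes.

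Of the transcription factors in the list, Irf7 and Irf9 rose in all 4 comparisons. Irf7, the factor that amplifies type I interferon production, stood at 8.49 and 25.6 CPM in DN1 floxed cultures on day 7, against 2.28 and 2.01 CPM on day 5. Its DN1 control cultures had 9.23 and 10.1 CPM on day 7, against 1.84 and 1.96 CPM on day 5. In DN3 it had 12.7 and 23.6 CPM in floxed cultures of day 7, against 2.9 and 4.61 CPM on day 5, and 8.38 and 13 CPM in control cultures of day 7, against 0.934 and 1.63 CPM on day 5. No day 7 library of Irf7 overlapped with day 5, and the log2 changes were 2.98 ± 0.50, 2.34 ± 0.52, 2.28 ± 0.46 and 3.06 ± 0.54 (± SE; adjusted p 0.000418, 0.00555, 0.000992 and 0.0005) in the same order. Without DN1 floxed library b of day 7 its change there was 1.98, and with those 4 libraries fitted alone its adjusted p there was 0.0674. Irf9, the DNA-binding partner of STAT2, rose by 1.19 ± 0.21 and 0.91 ± 0.22 in DN1 floxed and DN1 control cultures and by 1.61 ± 0.21 and 2.02 ± 0.22 in DN3 floxed and DN3 control cultures.

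Irf1, Stat2 and Nlrc5 passed on day 7 over day 5 in DN3 and not in DN1. Irf1, a factor induced mainly by interferon gamma, had 270.0 and 277 CPM in DN3 floxed cultures on day 7, against 161 and 130.0 CPM on day 5 (log2 change 0.91 ± 0.12, adjusted p 1.79e-05). In DN3 control cultures it had 467 and 442 CPM on day 7, against 178 and 137 CPM on day 5 (log2 change 1.53 ± 0.12, adjusted p 3.45e-07). The days did not overlap in either DN3 genotype, while in DN1 the log2 changes of Irf1 were 0.07 ± 0.12 in floxed and 0.03 ± 0.12 in control cultures. Nlrc5, the activator of MHC class I genes, had 36.5 and 38.5 CPM in DN3 floxed cultures on day 7, against 7.5 and 5.1 CPM on day 5, and 28.8 and 28.5 CPM in DN3 control cultures on day 7, against 3.2 and 5.18 CPM on day 5. Its log2 changes were 2.57 ± 0.43 and 2.77 ± 0.45 there, against 1.11 ± 0.52 and 1.44 ± 0.55 (adjusted p 0.133 and 0.0958) in DN1 floxed and DN1 control cultures. Stat2 changed by 0.59 ± 0.19 and 0.94 ± 0.20 in DN3 floxed and DN3 control cultures. Whether the change with day differed between precursors was not tested.

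Genes of several roles, 11 in all, rose from day 5 to day 7 in all 4 comparisons. Besides Irf7 and Irf9 these were the sensors Ddx58 (RIG-I), Dhx58 and Zbp1 and the oligoadenylate synthetase family members Oas3 and Oasl2. The others were the receptor transporter protein Rtp4, the ISG15 protease Usp18, Trim30a and the ubiquitin ligase Dtx3l. A further 29 rose in at least 1 of the 4, so that 40 of 46 did, and 6 (Oas1a, Ifit2, Ifit3b, Mx1, Bst2 and Xaf1) rose in none, of which 3 were not tested. How many of all genes rose in all 4 or in at least 1 was not counted, so the 11 and the 40 stand without a background. Rtp4 had 13.9 and 26.2 CPM in DN1 floxed cultures on day 7, against 7.26 and 9.33 CPM on day 5, and 29.8 and 39.9 CPM in DN1 control cultures on day 7, against 6.76 and 12.6 CPM on day 5. Its libraries of day 7 lay above those of day 5 throughout, with log2 changes of 1.27 ± 0.35 (floxed) and 1.83 ± 0.33 (control) in DN1 and 2.18 ± 0.34 and 2.61 ± 0.35 in DN3. Trim30a, a TRIM protein reported to damp NF-kB signalling in mice, rose by 0.76 ± 0.17 and 1.55 ± 0.17 in DN1 floxed and control cultures and by 1.80 ± 0.17 and 2.35 ± 0.19 in DN3 floxed and control cultures.

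**Figure D2:**
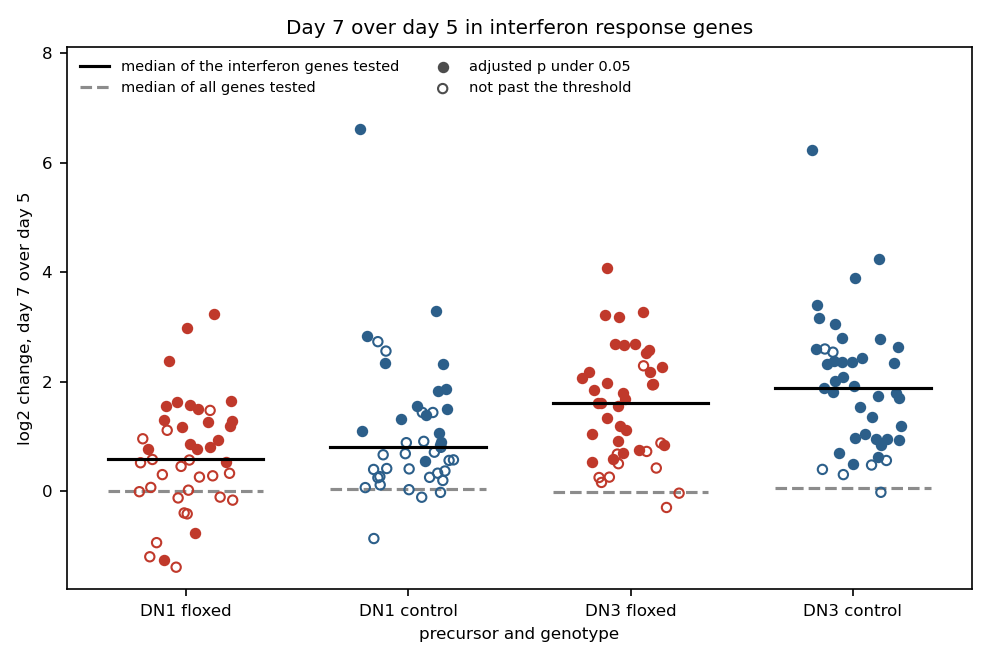
Each point is 1 of the 43 genes tested, placed by its log2 change of day 7 over day 5 (y axis) for each precursor and genotype, filled where the adjusted p was under 0.05. The solid line is the median of those genes and the dashed line that of all 15172 genes: the solid lines lie at 0.58, 0.80, 1.61 and 1.89, and the 2 highest control points (Ifi44 in DN1 and Oas2 in DN3) are genes without a count on day 5, whose fitted change is not a bound.

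Of the 13 antiviral effectors tested, 9 rose in DN3 floxed and 9 in DN3 control cultures, and 4 rose in DN1 floxed and 2 in DN1 control cultures. Rsad2 (viperin, which blocks virus replication) had 7.66 and 21.9 CPM in DN3 floxed cultures on day 7, against 2.18 and 2.43 CPM on day 5, and 14.9 and 17.8 CPM in DN3 control cultures on day 7, against 2.4 and 1.23 CPM on day 5. All day 7 libraries were above those of day 5 (log2 change 2.69 ± 0.58 and 3.16 ± 0.60), although without floxed library b of day 7 the floxed change was 1.72 with an adjusted p of 0.0894. Cmpk2, its neighbour in the genome and a mitochondrial nucleotide kinase, changed by 2.63 ± 0.49 in DN3 control and 1.31 ± 0.41 in DN1 floxed cultures, where the call was lost without library a or b of day 5 or library b of day 7 (adjusted p 0.14, 0.102 and 0.658). Oas3 in DN1 floxed cultures (3.73 and 18 CPM on day 7, against 1.99 and 2.15 CPM on day 5) and Usp18 there (7.07 and 15.4 CPM, against 5.12 and 4.02 CPM) lost their calls without the same 3 libraries. Isg15, the ubiquitin-like modifier, rose by 2.17 ± 0.35 in DN3 floxed and 2.79 ± 0.36 in DN3 control cultures.

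A few genes of low count need a bound in place of a fold. Ifi44 had 26 counts in DN1 control cultures on day 7 and none on day 5, at least 7.38-fold higher against a floor of 3 counts over the group. In DN3 control cultures it had 27 counts on day 7 and 1 on day 5, a ratio of 23.6 (95% interval 3.89 to 966.0, exact, counting error only). Oas2, which had no count in DN3 control cultures on day 5, was at least 6.12-fold higher on day 7.

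Xaf1, a pro-apoptotic interferon target, and Psmb9, an immunoproteasome subunit, fell in DN1 floxed cultures. Xaf1 had 12.7 and 8.16 CPM on day 7, against 32.2 and 18.1 CPM on day 5 (log2 change -1.26 ± 0.34, adjusted p 0.0124), and Psmb9 had 84.4 and 51.1 CPM, against 110.0 and 119 CPM (-0.75 ± 0.23, adjusted p 0.0251). The days did not overlap for either gene. Xaf1 lost its call without floxed library a of day 5 or b of day 7 (adjusted p 0.201 and 0.126), and Psmb9 without library a or b of day 5 or b of day 7 (0.0771, 0.109 and 0.287).

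In control cultures DN1 was also set against DN3. On day 5, 10 of 43 genes were higher and 4 lower in DN1 than in DN3, where 30.0% of all genes passed (15.5% higher, 14.5% lower). The list's share was near that of all genes with both directions together. On day 7, 2 were higher and 13 lower in DN1, where 22.6% of all genes passed (11.4% higher, 11.2% lower), and the list's median log2 difference was -0.35 beside 0.00 over all genes. Whether the precursor difference itself changed between the days was not tested. Ifitm3 was at 262 and 264 CPM in DN1 controls on day 5, against 30.2 and 25.1 CPM in DN3 controls (log2 difference 3.25 ± 0.18, adjusted p 2.46e-10), and at 282 and 289 CPM on day 7, against 98.0 and 95.8 CPM (1.56 ± 0.16, adjusted p 9.25e-07). The precursors did not overlap on either day.

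On day 5 Rsad2, Xaf1, Samhd1 and Trim30a were also higher in DN1 controls, by 2.94 ± 0.61, 1.60 ± 0.33, 1.53 ± 0.23 and 1.05 ± 0.19 on the log2 scale, and Herc6, a ligase that attaches ISG15, was lower by -1.76 ± 0.36. Isg15 was higher by 1.07 ± 0.38, a call that was lost without DN1 library d or either DN3 library (adjusted p 0.354, 0.124 and 0.142). On day 7 the lower genes in DN1 included factors, GTPases and peptide-loading genes. Nlrc5 had 7.69 and 3.06 CPM in DN1 controls, against 28.8 and 28.5 CPM in DN3 controls (-2.41 ± 0.43, and -3.22 without DN1 library c). Irf1 had 182 and 171 CPM, against 467 and 442 CPM (-1.37 ± 0.12), and Tap1, a subunit of the peptide transporter, had 57.5 and 58.8 CPM, against 133 and 124 CPM (-1.14 ± 0.12). None of these 3 genes overlapped between precursors, and Zbp1 (-1.97 ± 0.44), Gbp2 (-1.78 ± 0.33) and Igtp (-1.18 ± 0.25) were lower as well; Zbp1 lost its call without DN1 library c (adjusted p 0.0622). Leaving out DN1 library c moved the counts to 9 on day 5 and 9 on day 7.

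Before 4-OHT, on day 4, 0 of 43 genes passed between floxed and control cultures in either precursor, where 0.105% of all genes passed in DN1 (0.0593% higher, 0.0461% lower) and 0.442% in DN3 (0.191% higher, 0.25% lower). At an unadjusted p under 0.05 there were 2 genes in each (edgeR), and DESeq2 called 0. No share of all genes is given at these 2 settings, so the counts are not read as results about the list. On day 5, 3 of 43 genes were lower and 0 higher in DN1 floxed cultures, where 5.02% of all genes passed (2.56% higher, 2.46% lower), and 3 were higher and 0 lower in DN3 floxed cultures, where 9.76% passed (4.56% higher, 5.2% lower). In DN3 the list's share was below that of all genes with both directions together, but above theirs on the higher side, which rests on 3 genes. The DN1 share also rests on 3 genes.

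In DN1 on day 5, the lower genes were Irf1, Ifitm3 and Trim12a. Irf1 had 106 and 106 CPM in floxed cultures, against 168 and 177 CPM in controls (log2 difference -0.70 ± 0.12, adjusted p 0.0018). Ifitm3 had 182 and 128 CPM, against 262 and 264 CPM (-0.77 ± 0.16, adjusted p 0.00587), and lost its call without floxed library b (0.16) or control library d (0.053). No floxed library reached a control library for these genes. In DN3 on day 5, Trim30a had 26.1 and 29.8 CPM in floxed cultures, against 8.81 and 14.6 CPM in controls (1.26 ± 0.19, adjusted p 0.000253). Irf9 (27.7 and 24.4 CPM, against 16 and 15 CPM; 0.75 ± 0.22, adjusted p 0.0363) and Ddx58 (15.5 and 16.5 CPM, against 7.34 and 9.67 CPM; 0.91 ± 0.28, adjusted p 0.0446) were separated too, but their calls were lost without any 1 of the 4 libraries, which left Trim30a alone.

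On day 7, in DN1 floxed cultures, 13 of 43 genes were lower and 2 higher than in control cultures, where 22.5% of all genes passed (12.2% higher, 10.3% lower), and the median log2 difference was -0.53 over the list and -0.00 over all genes. Without floxed library a, 13 were lower and 8 higher, and the list's median was -0.14. With the 4 libraries of that comparison fitted alone, 4 were lower and 1 higher, and 9 named genes lost their calls (Ifit2, Xaf1, Usp18, Trim30a, Trim12a, Parp9, Dtx3l, Gbp3 and Psmb9, adjusted p 0.0536 to 0.22). For these refits too, no share of all genes is given. In DN3, 4 were lower and 5 higher, where 24.9% of all genes passed (12.9% higher, 12.0% lower), a share of the list no larger than that of all genes, with a median of 0.08. Of the genes called in both precursors, Irf1, Samhd1, Trim12a and Gbp3 differed in the same direction and Ifitm3, Trim30a and Parp9 in opposite directions. The DN1 and DN3 comparisons share no libraries.

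**Figure D3:**
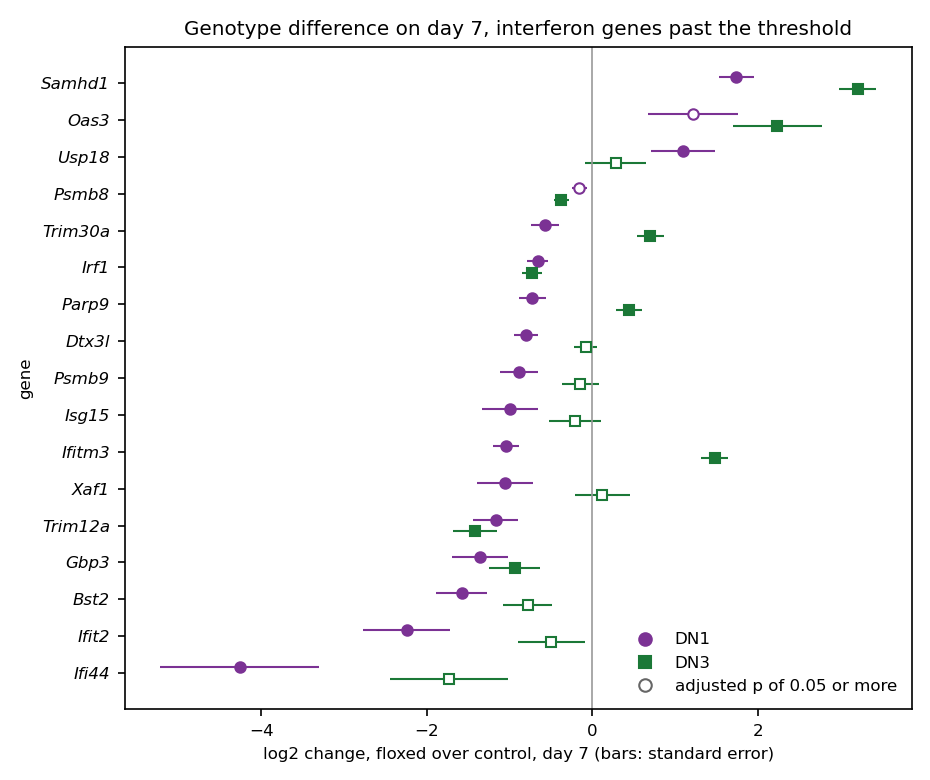
Points give the log2 difference of floxed over control cultures on day 7 (x axis) with the standard error as a bar, for the 17 genes that passed in DN1 (circles) or DN3 (squares), open where the adjusted p was 0.05 or more. Samhd1 lies to the right of 0 in both precursors (1.74 and 3.21), Trim12a to the left in both (-1.17 and -1.42), and Ifitm3 on opposite sides (-1.04 and 1.48).

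Samhd1, the enzyme that breaks down the nucleotides viruses need, was the gene called with the largest upward difference in floxed cultures of both precursors on day 7. It had 108 and 169 CPM in DN1 floxed cultures, against 41.7 and 41.3 CPM in controls (log2 difference 1.74 ± 0.21, adjusted p 1.01e-05), and 199 and 354 CPM in DN3 floxed cultures, against 30.8 and 29.3 CPM (3.21 ± 0.22, adjusted p 1.38e-08). Floxed and control libraries did not overlap in either precursor on day 7, whereas on day 5 they had 45.3 and 43.5 CPM against 42.5 and 46.9 CPM in DN1, and 14.8 and 18.2 CPM against 15.2 and 15.8 CPM in DN3. The genotype difference on day 7 exceeded that on day 4 by 2.05 in DN1 and 2.77 in DN3. In the unsorted day 4 libraries Samhd1 had 251 and 291 CPM in DN1 floxed cultures, against 347 and 325 CPM in controls. In DN3 on day 4 Samhd1 had 112 and 104 CPM in floxed cultures, against 73.6 and 85.8 CPM in controls. Its day 7 level was above its day 5 level by 4.07 ± 0.24 in DN3 floxed and 0.95 ± 0.24 in DN3 control cultures. Samhd1 is also a myeloid gene, and the summed level of 9 myeloid markers was 44.9 to 65.5 CPM in floxed and 19.8 to 32.4 CPM in control libraries of day 7. The markers with a count were 9 and 7 in DN1 and DN3 floxed cultures and 8 and 7 in DN1 and DN3 control cultures, Cd14 being at 0 in DN3 floxed and in both control groups, and their part in the result was not tested. In bulk libraries such as these, fewer cells of a type and less RNA per cell cannot be told apart.

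Irf1 was lower in floxed cultures of both precursors on day 7. It had 112 and 111 CPM in DN1 floxed cultures, against 182 and 171 CPM in controls (-0.66 ± 0.12, adjusted p 0.000727), and 270.0 and 277 CPM in DN3 floxed cultures, against 467 and 442 CPM (-0.73 ± 0.12, adjusted p 0.000162). Genotypes were fully separated. In DN3 the genotype difference of day 7 less that of day 4 was -0.94. The other factors of the list, Irf7, Irf9, Stat2 and Nlrc5, did not pass between genotypes on day 7 in either precursor.

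Ifitm3 (chr7:141009586-141010770, mm10) differed in opposite directions. In DN1 on days 4, 5 and 7, it had 192 and 173, 182 and 128, and 111 and 165 CPM in floxed cultures, against 227 and 220.0, 262 and 264, and 282 and 289 CPM in controls. In DN3 on day 7 it had 251 and 288 CPM in floxed cultures, against 98.0 and 95.8 CPM in controls, while on day 5 it had 27.0 and 31.1 CPM against 30.2 and 25.1 CPM. Libraries of the genotypes overlapped on day 5 in DN3 and not on day 7. The log2 differences on day 7 were -1.04 ± 0.16 (adjusted p 9.16e-05) in DN1 and 1.48 ± 0.16 (adjusted p 1.91e-06) in DN3, and the DN1 difference less the DN3 difference was -2.52 ± 0.23 (adjusted p 2.39e-06). Its chromosomal neighbours Ifitm1 and Ifitm2 were higher in DN3 floxed cultures too (3.26 ± 0.42 and 2.30 ± 0.17), and changed by -0.24 ± 0.38 and 0.35 ± 0.16 in DN1 (adjusted p 0.698 and 0.116).

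**Figure D4:**
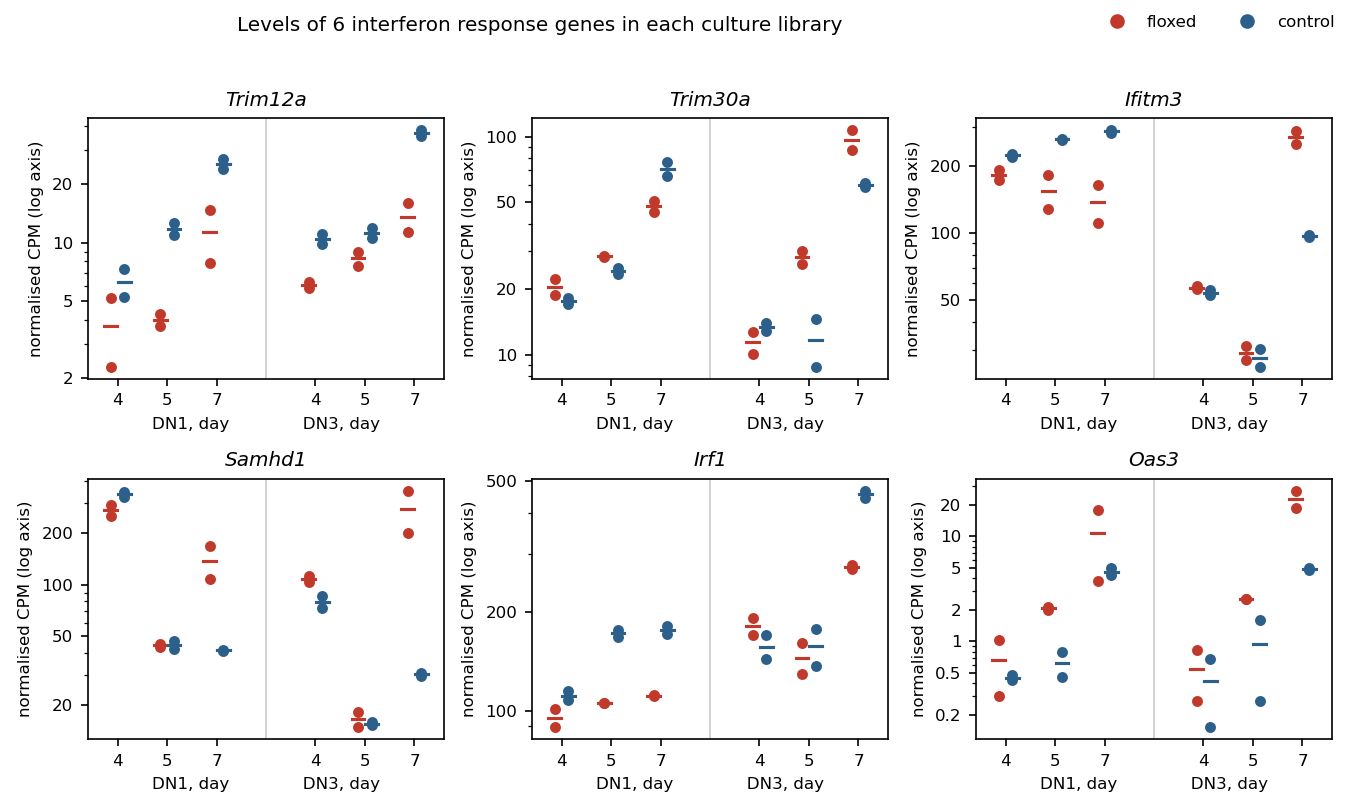
Normalised CPM (log axis) of 6 genes in each culture library, by precursor and day, with floxed points left of control points and a bar at each mean. Trim12a is lower in floxed cultures on every day, Samhd1 is high in floxed cultures of both precursors on day 7 and Oas3 in those of DN3, Irf1 is low in floxed cultures on day 7, and Ifitm3 and Trim30a lie below controls in DN1 and above them in DN3 on day 7.

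Trim30a (chr7:104409025-104465193) and Trim12a (chr7:104299894-104315466), which lie close together, behaved differently. Trim30a had 45.3 and 50.6 CPM in DN1 floxed cultures on day 7, against 65.8 and 76.7 CPM in controls (-0.57 ± 0.17, adjusted p 0.019, and 0.157 without control library d). In DN3 it had 86.7 and 107 CPM, against 58.5 and 61.1 CPM (0.70 ± 0.17, adjusted p 0.00382, and 0.0851 without floxed library b). The precursors' differences were apart by -1.27 ± 0.23 (adjusted p 0.00269). Trim12a, a TRIM5-like gene of the mouse, had 14.7 and 7.89 CPM in DN1 floxed cultures on day 7, against 26.9 and 24 CPM in controls, and 11.3 and 16 CPM in DN3 floxed cultures, against 38.1 and 35.4 CPM. Its log2 differences were -1.17 ± 0.27 (adjusted p 0.00404, and 0.0737 without floxed library b) and -1.42 ± 0.27 (adjusted p 0.000538).

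Trim12a lay lower in floxed than in control libraries at all 6 precursor and day pairs, day 4 before 4-OHT included. On day 4 it had 5.18 and 2.28 CPM in DN1 floxed cultures, against 7.28 and 5.27 CPM in controls, and 5.84 and 6.28 CPM in DN3 floxed cultures, against 11.1 and 9.85 CPM. These day 4 differences (-0.69 ± 0.33 and -0.78 ± 0.30) did not pass over all genes (adjusted p 0.999 and 0.487). Day 5 gave 3.7 and 4.3 CPM in DN1 floxed cultures, against 12.6 and 11.0 CPM (-1.55 ± 0.32, adjusted p 0.00628, and 0.057 to 0.0689 without floxed library a, floxed library b or control library c), and 7.62 and 8.99 CPM in DN3 floxed cultures, against 11.9 and 10.6 CPM. The change of the genotype difference from day 4 to day 7 was -0.48 ± 0.43 in DN1 and -0.64 ± 0.40 in DN3 and did not pass (adjusted p 0.539 and 0.353). Its neighbour Trim34a (chr7:104244457-104262234) was lower on day 7 by -1.17 ± 0.23 in DN1 and -0.94 ± 0.24 in DN3. Trim12a, Trim30a and their neighbours are close paralogs, so reads could be split between them in the counting.

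Oas3, an oligoadenylate synthetase that activates RNase L, had 18.6 and 27.4 CPM in DN3 floxed cultures on day 7, against 5.03 and 4.79 CPM in controls (2.23 ± 0.54, adjusted p 0.00438, and 0.0563 and 0.0538 without floxed library b or control library d). In DN1 it had 3.73 and 18 CPM, against 4.26 and 5.01 CPM, so floxed and control libraries overlapped. Gbp3, a guanylate-binding GTPase, was lower in both precursors, with 4.24 and 6.37 CPM in DN1 floxed cultures, against 10.5 and 16.6 CPM in controls (-1.36 ± 0.33, adjusted p 0.00646, and 0.106 without control library d), and 11.3 and 14.2 CPM in DN3 floxed cultures, against 25.0 and 24.2 CPM (-0.94 ± 0.30, adjusted p 0.0291, and 0.0719 to 0.179 without any 1 library). Of these 2 genes with an ISRE core, Oas3 was higher and Gbp3 lower in DN3 floxed cultures, and any part of the core in this was not tested.

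The 3 genes with the largest called decreases in DN1 floxed cultures on day 7 were of low level. Bst2 (tetherin, which holds budding virus at the membrane) had 7.72 and 6.37 CPM in floxed cultures, against 21.4 and 20.8 CPM in controls (-1.58 ± 0.30, adjusted p 0.000992). In DN3 it had 11.5 and 10.5 CPM, against 19.5 and 18.4 CPM (-0.78 ± 0.30), which did not pass (adjusted p 0.0619). Ifit2, a translation inhibitor, had 1.67 and 0.138 CPM in DN1 floxed cultures, against 4.97 and 3.91 CPM (-2.24 ± 0.52, adjusted p 0.00442, and a difference of -1.40 with an adjusted p of 0.0583 without floxed library b). For Ifi44 there was 1 count in floxed cultures and 26 in controls, 23.5 times lower in floxed cultures (exact 95% interval 3.85 to 962.0; adjusted p 0.00384, and 0.0657 without control library d). All 3 genes were separated between genotypes in DN1, on the same values as the test.

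The remaining lower genes in DN1 floxed cultures were Dtx3l, Parp9, Psmb9, Isg15 and Xaf1. Dtx3l and Parp9, which form a complex that modifies histones, had 79.3 and 103 CPM, against 154 and 165 CPM in controls (-0.81 ± 0.14, adjusted p 0.000521), and 21.5 and 21.4 CPM, against 35.7 and 35.3 CPM (-0.73 ± 0.16, adjusted p 0.00321). In DN3, Dtx3l had 181 and 205 CPM against 190.0 and 218 CPM and did not pass, and Parp9 had 48.4 and 54.0 CPM, against 36.6 and 38.7 CPM (0.44 ± 0.16, adjusted p 0.0448, lost without any 1 library). The DN1 difference less the DN3 difference was -1.17 ± 0.23 for Parp9 (adjusted p 0.0035) and -0.73 ± 0.20 for Dtx3l (0.0332).

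Psmb9 had 84.4 and 51.1 CPM in DN1 floxed cultures, against 134 and 117 CPM in controls (-0.89 ± 0.23, adjusted p 0.00869, and 0.147 and 0.0731 without floxed library b or control library c). Isg15 had 17.0 and 17.9 CPM, against 30.9 and 38.5 CPM (-0.99 ± 0.34, adjusted p 0.0422, and 0.0748 to 0.206 without any 1 library). Xaf1 had 12.7 and 8.16 CPM, against 18.7 and 24.8 CPM (-1.05 ± 0.34, adjusted p 0.0307, and 0.252 and 0.193 without floxed library b or control library d). All 3 were separated between genotypes, yet each lost its call without at least 1 library. In the other direction, Usp18 had 7.07 and 15.4 CPM in DN1 floxed cultures, against 5.92 and 4.52 CPM (1.10 ± 0.38, adjusted p 0.0464, and a difference of 0.44 with an adjusted p of 0.585 without floxed library b). In DN3, Psmb8 was lower (325 and 315 CPM in floxed cultures, against 423 and 406 CPM; -0.37 ± 0.09, adjusted p 0.00371).

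Setting day 7 against day 4 asks whether the genotype difference on day 7 departed from that before 4-OHT. The day 4 libraries were unsorted and held 2700 to 13700 CPM of stromal markers, so their genotype difference is not one of thymocytes alone. The part of the stroma in the values below was not tested. In DN1, 6 of 43 genes changed (5 lower, 1 higher), where 7.78% of all genes passed (4.17% higher, 3.61% lower), and in DN3 4 did (1 lower, 3 higher), where 12.3% passed (6.02% higher, 6.28% lower). With both directions together, the list's share was above that of all genes in DN1 and below it in DN3. The DN1 genes were Bst2, Psmb9, Dtx3l, Ifitm3 and Ifi44 on the lower side (-1.66, -1.14, -0.81, -0.76 and, from few counts, -3.83) and Samhd1 on the higher side. Samhd1 was the one DN1 call that held without any 1 of the 8 libraries, and leaving 1 out left 1 to 7 calls. In DN3, Irf1 changed by -0.94, Samhd1 by 2.77, Ifitm3 by 1.40 and Trim30a by 0.94, of which Trim30a lost its call without 6 of the 8 libraries. Between precursors on day 7, 5 of 43 genes had a lower floxed-over-control difference in DN1 than in DN3 and 0 a higher one, where 7.79% of all genes passed (3.81% higher, 3.98% lower): Ifitm3, Trim30a, Parp9, Dtx3l and Samhd1 (-1.47 ± 0.30, adjusted p 0.00487, and 0.0858 with those groups fitted alone). Dtx3l lost its call without 6 of the 8 libraries (adjusted p 0.0557 to 0.129).

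A wider set of 110 other genes of the interferon pathway gives the surroundings of the list. Of 12 interferon genes, Ifng was the one abundant enough to be tested in the cultures, where it passed in no comparison, and Ifnk the one tested in the lung, where it did not pass (adjusted p 0.117). Ifnb1 had 1 count over all 31 libraries. Of 88 pathway genes tested, on day 7 over day 5, 28 rose and 0 fell in DN1 floxed, 38 rose and 1 fell in DN1 control, 55 rose and 2 fell in DN3 floxed, and 57 rose and 2 fell in DN3 control cultures, where 12.0%, 6.45%, 13.6% and 10.5% of all genes rose. Between genotypes on day 7, 22 were lower and 13 higher in DN1 floxed cultures, where 10.3% of all genes were lower and 12.2% higher, and 9 were lower and 28 higher in DN3 floxed cultures, where 12.0% were lower and 12.9% higher.

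At the receptors, both subunits of the type I receptor were lower in DN1 floxed cultures on day 7: Ifnar1 had 10.9 and 11.1 CPM, against 16.1 and 17.1 CPM in controls (-0.59 ± 0.18, adjusted p 0.0248), and Ifnar2 had 35.7 and 29.5 CPM, against 59.4 and 58.7 CPM. In DN3 they differed by 0.36 ± 0.17 and -0.37 ± 0.15 and did not pass (adjusted p 0.139 and 0.0713). Of the interferon gamma receptor, Ifngr2 was higher in floxed cultures of DN1 (1.06 ± 0.29) and DN3 (1.18 ± 0.29), and Ifngr1 was lower in DN3 (-1.0 ± 0.14) and at 0.16 ± 0.14 in DN1 (adjusted p 0.446). Jak2, the kinase bound to that receptor, was higher in both (1.19 ± 0.15 and 1.44 ± 0.15).

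Among further induced genes, the guanylate-binding proteins Gbp5 and Gbp7 were lower in DN1 floxed cultures (-2.76 ± 0.50 and -1.55 ± 0.17), with Ifi203, Ifi205, Tdrd7 and Ube2l6 (-1.58, -1.61, -2.28 and -1.98). Gbp5 had 2.06 and 0.554 CPM there, against 10.3 and 7.82 CPM. In DN3 floxed cultures the higher genes were led by Ifitm1 (950.0 and 1560 CPM, against 136 and 126 CPM), Irf4, Phf11b, Ifitm2, Slfn5 and Ifi209 (2.67, 2.45, 2.30, 2.12 and 1.65), and the lower ones by Irf8, Trim34a, Iigp1, Gbp6 and Pml (-1.08, -0.94, -0.75, -0.72 and -0.67). Irf4, a factor of lymphocyte differentiation, was higher in DN1 floxed cultures too (2.44 ± 0.54), as were Phf11b, the adaptor Ticam1 and Sp100 (2.99, 1.82 and 0.84). Irf4 had 15.9 and 13.6 CPM in DN1 floxed cultures, against 2.49 and 2.93 CPM.

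Thymic ILC2 were set against the floxed cultures of day 7, the cultured cells in which, by their labels, the same genes were targeted. Tcf3 had 5.3 to 13.4 CPM in thymic ILC2, against 15 to 38.3 CPM in those cultures, and Tcf12 had 278 to 298 CPM, against 107 to 170.0 CPM, so Tcf12 RNA lay near the 267 to 279 CPM of DN1 control cultures of day 7. Counts over a whole gene can hold reads from outside the deleted part. Compared with DN1 floxed cultures, 29 of 46 genes were higher and 9 lower, where 73.7% of all 16391 genes passed (33.6% higher, 40.1% lower). Against DN3 floxed cultures, 21 were higher and 13 lower, where 71.8% passed (33.0% higher, 38.8% lower). With both directions together, the list's share against DN3 was near that of all genes. The list's medians were 1.43 and 0.61, beside -0.26 and -0.20 over all genes. With DESeq2-type (RLE) scaling they were 1.73 and 0.94, beside 0.00 and 0.03. Library type, tissue and sex differ along with the cells: Xist was at 0.331 to 0.336 CPM and summed Y-linked genes at 567 to 577 CPM in thymic ILC2, against 1330 to 1940 CPM and 0.522 to 2.63 CPM in the floxed cultures. Their parts in the result cannot be told apart. The difference also followed exon length: the median log2 difference from DN1 over protein-coding genes was -3.63 below 1000 exon bases, -2.27 from 1000 to 2000, -0.95 from 2000 to 4000 and 0.28 above. The part of length in what follows was not tested. The 29 higher genes had 1745 to 9306 exon bases (median 4689) and the 9 lower ones 678 to 8118 (median 3660), with Ifitm3 (678) and Isg15 (756) the shortest.

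**Figure D5:**
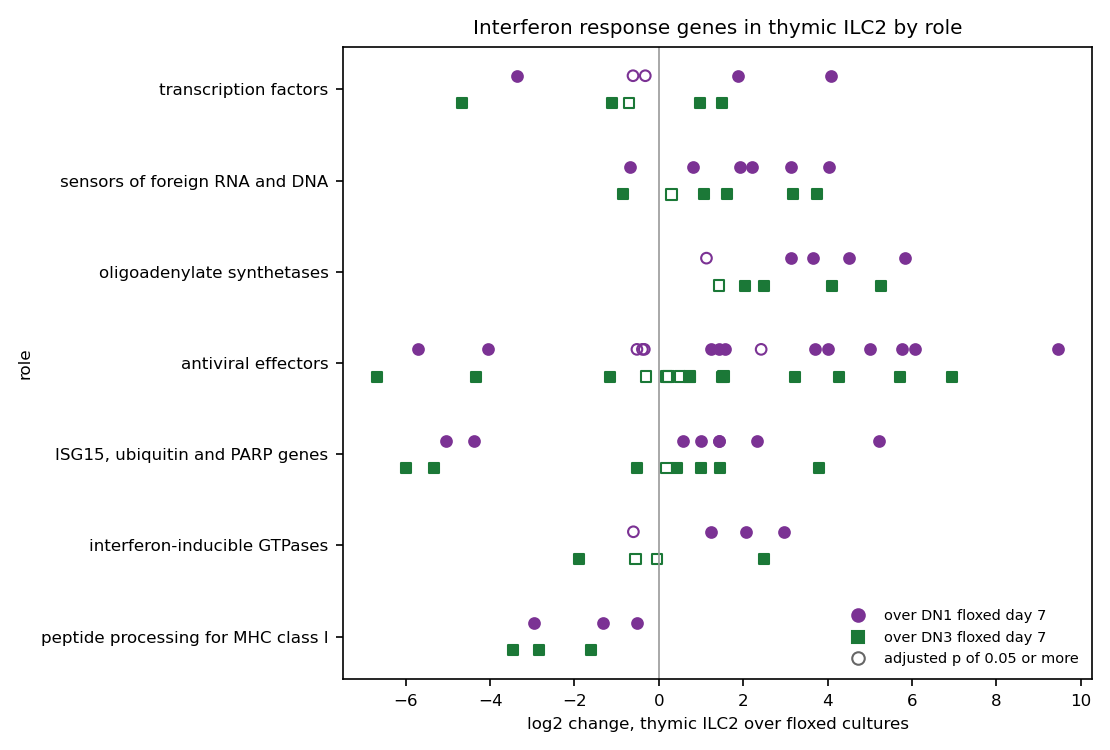
Each point is 1 of the 46 genes, placed by its log2 difference of thymic ILC2 over DN1 (circles) or DN3 (squares) floxed cultures of day 7 and by its role, open where the adjusted p was 0.05 or more. Oligoadenylate synthetases lie to the right of 0 in both comparisons (4 of 5 passed) and the 3 peptide-processing genes to the left.

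The groups higher in thymic ILC2 were the synthetases, most sensors and many effectors. Of the 5 oligoadenylate synthetase genes, 4 were higher against either culture: Oas2 had 40.0 and 24.8 CPM in thymic ILC2, against 0.129 and 0.969 CPM in DN1 and 1.39 and 2.25 CPM in DN3 floxed cultures (log2 difference 5.84 ± 0.78 and 4.10 ± 0.68). Oasl2 had 189 and 125 CPM, against 5.66 and 7.89 CPM in DN1 and 1.04 and 6.61 CPM in DN3 (4.51 ± 0.41 and 5.27 ± 0.43). Ifit1, which binds foreign RNA caps, had 158 and 104 CPM, against 1.29 and 3.46 CPM and 3.83 and 9.28 CPM (5.76 ± 0.42 and 4.27 ± 0.38). Per kilobase Ifit1 was the highest of the list in thymic ILC2.

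Ifi44 had 83.0 and 36.7 CPM in thymic ILC2, with 358 counts against 1 in DN1 floxed cultures (ratio 895, exact 95% interval 160.0 to 35500), and its log2 difference from DN3 was 6.94 ± 0.61. The dynamin-like GTPases Mx1 and Mx2, barely detected in cultures, had 36.9 and 21.8 CPM and 11.1 and 28.1 CPM, and differed by 5.01 ± 0.83 and 6.08 ± 0.93 from DN1. Herc6 had 205 and 188 CPM, against 7.59 and 2.63 CPM in DN1 and 10.8 and 16.9 CPM in DN3 (5.22 ± 0.31 and 3.79 ± 0.28). For all of these genes both ILC2 libraries lay above all 4 culture libraries. Since several culture values rest on few counts, leaving out DN1 library a or b gave DN1 differences of 4.02 and 7.56 for Mx1, 4.98 and 10.08 for Mx2, 4.92 and 7.69 for Oas2, 5.12 and 6.55 for Ifit1, and 6.10 and 4.59 for Herc6. Without DN3 library a or b, the DN3 differences were 4.47 and 7.10 for Oasl2, 5.00 and 7.16 for Mx1 and 6.28 and 8.18 for Ifi44.

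Lower in thymic ILC2 were Ifitm3, Isg15, Trim12a, Ifi35, Irf1 and the peptide-processing genes. Irf1 had 7.39 and 14.6 CPM, against 112 and 111 CPM in DN1 and 270.0 and 277 CPM in DN3 floxed cultures (-3.36 ± 0.20 and -4.66 ± 0.20). Psmb8 had 33.3 and 26.5 CPM, against 228 and 226 CPM and 325 and 315 CPM (-2.96 ± 0.13 and -3.45 ± 0.13). Ifitm3 had 5.04 and 0.331 CPM, against 111 and 165 CPM and 251 and 288 CPM (-5.71 ± 0.35 and -6.68 ± 0.35, and -8.67 and -4.78 from DN1 without ILC2 library 1 or 3). No ILC2 library reached a culture library for these genes. Trim12a had 0.336 and 0.331 CPM in thymic ILC2, 2 counts in all, 34.2 times lower than in DN1 (exact 95% interval 9.32 to 285) and 41.7 times lower than in DN3 (11.4 to 347).

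Isg15 was lower by -4.38 ± 0.70 and -6.00 ± 0.63, with ILC2 libraries at 1.68 and 0 CPM and a DN1 difference of -3.37 without ILC2 library 3, and Ifi35 by -4.06 ± 0.32 and -4.34 ± 0.32. Irf7 and Irf9 were at 13.8 and 8.94 CPM and 43.7 and 31.8 CPM, and their differences from DN1 did not pass (-0.61 ± 0.45 and -0.32 ± 0.23, adjusted p 0.226 and 0.205). Against DN3 floxed cultures, at 70.8 and 88.0 CPM, Irf9 was lower (-1.10 ± 0.23, adjusted p 0.000172). Of the wider pathway, 44 of 90 genes were higher and 25 lower against DN1, and 31 higher and 35 lower against DN3. With both directions together these shares were near the 73.7% and 71.8% of all genes that passed. By direction, 33.6% of all genes were higher and 40.1% lower against DN1, and 33.0% higher and 38.8% lower against DN3.

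In the lung, dKO and Id1 ILC2 were compared, both with low E protein activity in T cell precursors, by deletion or by inhibition. Id1 RNA was at 23.6 to 102 CPM in the Id1 libraries and 0 to 0.335 CPM in the dKO libraries. Of 45 genes tested (all but Isg15), 2 were lower in dKO and 0 higher, where 18.1% of all 19371 genes passed (14.4% higher, 3.66% lower). The list's share was below that of all genes with both directions together, and near theirs on the lower side alone. The list's median log2 difference was -0.79, beside 0.16 over all genes (-0.53 and 0.38 with RLE scaling). DESeq2 called 5 genes, all lower, with no share of all genes given here. By exon length the median over protein-coding genes was 0.86 below 1000 bases and -0.10 at 4000 bases and above, and its part in the result was not tested.

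The 2 genes were the neighbours Trim12a and Trim30a. Trim12a had 4.65 and 1.67 CPM in dKO, against 82.9, 63.2 and 74.8 CPM in Id1 lung ILC2 (log2 difference -4.46 ± 0.54, adjusted p 0.00642), and it passed under every alternative tried. Trim30a had 33.5 and 17.7 CPM, against 154, 67.7 and 84.4 CPM (-1.98 ± 0.48, adjusted p 0.0283), and lost its call without dKO library 3 (0.136) or Id1 library 1 (0.0745). Neither gene overlapped between the groups. Trim34a was lower as well, with 0.776 and 0.335 CPM in dKO, against 35.1, 11.2 and 18.4 CPM (-5.14 ± 0.91, adjusted p 0.0182). Trim12a had also passed as lower in floxed cultures of DN1 on days 5 and 7 and of DN3 on day 7. It did not pass in DN3 on day 5, and both DN1 calls were lost under some alternatives. The change of its genotype difference from day 4 to day 7 did not pass in either precursor. Any link between the lung and the culture values was not tested.

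The Id1 libraries were uneven over the list: library 1 was the highest of the 3 for 40 of 46 genes, by a median of 1.15 on the log2 scale over the next. Ifit1 had 3.26 and 25.4 CPM in dKO, against 84.3, 1.16 and 4.46 CPM in Id1 libraries 1, 2 and 3, and Oasl2 had 17.1 and 20.1 CPM in dKO, against 137, 22.6 and 12.1 CPM in Id1. The groups overlapped for both genes. Samhd1, at 1000 and 700.0 CPM in dKO and 1510, 813 and 911 CPM in Id1 ILC2, was the highest of the list per kilobase in the lung, on the lung's own scale. Of 93 other pathway genes tested, 2 were higher in dKO and 8 lower, where 14.4% of all genes were higher and 3.66% lower. The pathway's share was below the 18.1% of all genes with both directions together, but above theirs on the lower side. The 2 higher genes were Ifi205 (by 3.79 ± 0.92) and the lambda receptor subunit Ifnlr1, at least 183-fold higher against no count in Id1. Among the 8 lower genes were Lgals3bp, Tapbp, Ly6e, Ly6a and Slfn8 (-3.68, -2.46, -2.41, -2.35 and -1.91).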

How the data were processed

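RNA-seq libraries of thymocyte cultures, thymic ILC2 and lung ILC2 were analysed from the raw counts that the authors deposited, in 1 table for the thymus (26 libraries) and 1 for the lung (5 libraries). Total RNA was extracted with Trizol and sequenced by standard Illumina protocols, per the labels. The submitters' processing notes name mm10 and DESeq2. Aligner, counting program and use of strand were not given in the sources used here. Gene names, positions and exon lengths came from GENCODE M21 (mm10). Mesenteric lymph node samples were not analysed here.

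Counts were tested with edgeR 4.0.16 in R 4.3.3 (quasi-likelihood test, TMM scaling, filterByExpr with a minimum count of 10, Benjamini-Hochberg adjustment over all genes tested, threshold 0.05). A single fit with a mean for each group took all 24 culture libraries. Thymic ILC2 were fitted with the cultures and the lung table alone, over 18 comparisons in all. Levels are CPM scaled by each fit's TMM factors, and lung levels are on their own scale. Libraries held 3695522 to 13065445 counts, and 1 normalised CPM is worth at least 2.99 reads. Groups without a count were set to a floor of 3 counts over the group, and intervals are exact at 95%, for counting error only. On simulated counts of the DN1 day 7 comparison (14316 genes), the test recovered 85% of genes changed by 1 and 100% of those changed by 2 on the log2 scale. On simulated lung counts (21030 genes) it recovered 0% of either. In both simulations the changed genes were drawn only from those of higher count, and every library had the same spread. Recovery of genes of low count, or with a pair as uneven as DN1 floxed day 7, was not simulated.

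The interferon genes and the other lists were chosen with earlier results of these data known. Named were genes past the threshold between genotypes, in an interaction or in the lung, all transcription factors of the list, the most abundant gene of each role, and elsewhere up to 6 genes each way by log2 change with at least 10 CPM. Alternatives were DESeq2 1.42.0, RLE scaling, no filter on low counts, a fit of the compared groups alone, a replicate block and leaving out each library. Oas1a, the Ifit3 and Ifit3b pair, Mx1 and Mx2, Oasl1 and Oasl2, and Gbp2 and Gbp3 have close copies and their counts are uncertain.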

Additional observations from a re-analysis of the deposited data

Results flagged for a closer look

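These values were set apart because a difference between genotypes itself differed, by an edgeR interaction test, between precursors or between days. Floxed over control on day 7 was lower in DN1 than in DN3 for Ifitm3 by a log2 difference of -2.52, for Samhd1 (-1.47, higher in floxed cultures of both), for Trim30a (-1.27), for Parp9 (-1.17) and for Dtx3l (-0.73). In DN1 the floxed over control difference of day 7 less that of day 4 was -3.83 for Ifi44, which rests on 1 count in floxed cultures of day 7, -1.66 for Bst2, -1.14 for Psmb9, -0.81 for Dtx3l, -0.76 for Ifitm3 and 2.05 for Samhd1. In DN3 the same quantity was -0.94 for Irf1, 0.94 for Trim30a, 1.40 for Ifitm3 and 2.77 for Samhd1. Day 4 libraries were not sorted and held 2700 to 13700 CPM of stromal markers, and the part of these in the differences between days was not tested. The DN1 less DN3 value of Samhd1 lost its call when the groups compared were fitted alone (adjusted p 0.0858).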

How the results depend on the processing

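Of 111 values of named genes past the threshold, 70 stayed past it under every alternative run and 0 changed sign. With the compared groups fitted alone, counts of called genes were 5 (DN1 day 5), 5 (DN1 day 7), 1 (DN1 day 7 less day 4), 3 (DN1 less DN3 response), 1 (DN1 floxed day 7 over day 5), 26 (the same for DN1 control) and 26 (DN1 against DN3 control, day 7), which changes the samples that set the spread. Without the filter on low counts they were 8 (DN1 day 5), 10 (DN1 day 7 less day 4), 10 (DN1 less DN3 response), 25 (DN1 control day 7 over day 5) and 9 (lung). DESeq2 gave 5 for DN1 day 5 and 5 for the lung. The cause of the last 2 sets was not tested. Throughout this section the counts are of the list alone. Shares of all genes under each alternative are not given, so the counts are not set against a background.

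Leaving out 1 library gave 0 to 0 (DN1 and DN3 day 4), 1 to 2 (DN1 day 5), 9 to 21 (DN1 day 7), 1 to 1 (DN3 day 5), 5 to 9 (DN3 day 7), 1 to 7 (DN1 day 7 less day 4), 3 to 4 (DN3 day 7 less day 4), 4 to 8 (DN1 less DN3 response), 6 to 27, 7 to 8, 20 to 31 and 28 to 29 (day 7 over day 5 in DN1 floxed, DN1 control, DN3 floxed and DN3 control), 9 to 11 and 9 to 12 (DN1 against DN3 control, days 5 and 7), 35 to 39 and 30 to 34 (thymic ILC2 against DN1 and DN3) and 1 to 3 (lung). Groups then left with 1 library are assumed to vary like the others. The count of 15 in DN1 on day 7 was 9 without control library d, and the count of 9 in DN3 was 5 without floxed library b.

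Floxed and control cultures share no replicate letters, so no paired analysis was possible because those groups have no common numbers. Elsewhere libraries of the same letter deviated together with correlations of -0.118 to 0.135 over 15172 genes, which does not show pairing. With the replicate block the lung count was 5, the DN1 count of day 7 less day 4 was 5 (also with the letters of DN1 floxed day 7 crossed, an alternative chosen after seeing the data), and DN1 floxed day 7 over day 5 gave 17. Depth limits Mx1, Oas1a, Ifit3b, Ifi44 and Oas2 in cultures and Isg15 in the lung.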
